A study of Mus musculus with 39 samples.

Results

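The 9 genes Btg4, Cnot6l, Cnot6, Cnot7, Cnot8, Zfp36l2, Ythdf2, Tut4 and Tut7, which act in the deadenylation and decay of maternal messages, were taken by name from a count table of 55487 genes. All 9 were present under these names, and all 9 passed the filter on low counts, which left 14120 genes to test. The table covers wild-type mouse embryos sequenced as 39 libraries of either 1 undivided embryo or 1 of its blastomeres, the cells of the cleaving embryo. Separated 4-cell embryos numbered 5 (20 blastomere libraries), of which 2 came from the submitters' batch 2 and 3 from batch 1. Intact 4-cell embryos numbered 4, separated 2-cell embryos 5 (10 blastomere libraries) and intact 2-cell embryos 5, all from batch 1. No agent or altered allele is named for any group, and the strain, age in hours, litters and any culture after separation are not stated. Blastomere counts were added up per embryo, which is the unit of replication. Since the labels do not say that embryos came from separate animals, p-values measure only how far these embryos vary, which can be technical in part.

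A mouse egg stops transcription before ovulation and lives on stored messages, which are then cleared around fertilisation and genome activation. Clearance starts with the shortening of the poly(A) tail by the CCR4-NOT complex, which carries a pair of catalytic subunits, one of the CCR4 kind (Cnot6 or Cnot6l) and one of the CAF1 kind (Cnot7 or Cnot8). Adaptors such as Btg4 and message-binding proteins such as Zfp36l2 and Ythdf2 bring the complex to its targets, and Tut4 and Tut7 add uridines to shortened tails, which marks them for decay. Several of these factors are themselves encoded by stored messages that carry a cytoplasmic polyadenylation element near their 3′ end.

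The 3′ ends are shown because the libraries were primed on poly(A) tails, and because the factors act on such tails. In the last 100 bases of annotated GENCODE M21 transcripts (GRCm38), 4 strings were searched on the transcript strand alone. The polyadenylation hexamers AATAAA and ATTAAA were found in 63.8% and 20% of 19069 transcripts, 1 a gene. The cytoplasmic polyadenylation elements TTTTAT and TTTTAAT were found in 13.8% and 5.01% of them. Btg4 and Cnot7 were the members with a TTTTAT string, starting 67 and 20 bases from the end. No hexamer was found in the Btg4 window, and none of the 4 strings in that of Cnot6l. Windows were read for 8 members, Cnot8 being the other one. The 30-base stretches below hold the strings in capitals.
Btg4: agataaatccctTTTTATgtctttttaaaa
Cnot7: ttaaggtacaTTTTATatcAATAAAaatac
Cnot6: tcatagccaaccAATAAAttcaatatctgt
Zfp36l2: tttgtagtttcccccAATAAAattttttgg
Ythdf2: tttttacatttaATTAAAaaaaatgtatgt
Tut4: ctattttaagttAATAAAtctttttgacaa
Tut7: tcatggtaaaaaAATAAAaatggtgaccat
A match is a string of letters and not a shown site, and which end the embryos use was not measured.

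Embryos held 13 to 103 M (mega) counts in separated 4-cell, 2.74 to 4.19 M in intact 4-cell, 14.2 to 56.2 M in separated 2-cell and 7.16 to 9.89 M in intact 2-cell embryos. Levels below are CPM, counts per M counts of an embryo after TMM scaling, and are relative to all counts, since no spike-in is named. A difference in CPM therefore cannot tell a loss of message from a gain elsewhere, nor fewer molecules from shorter tails that prime less. All 7 oocyte and early embryo markers were detected in every group, summing to 6010 to 32400 CPM. Of 7 cumulus and granulosa markers, all were at 0 in intact 4-cell embryos, and their sum reached 2.52, 38.5 and 4.25 CPM in separated 4-cell, separated 2-cell and intact 2-cell embryos. Sums of blood, sperm and oviduct markers stayed at or below 50.6, 25.6 and 16.2 CPM, and their part in the results was not tested.

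Of the 9 genes, 3 fell at the 4-cell stage in intact embryos, Btg4, Cnot6l and Cnot7, and none rose. This is set against 4.99% of all tested genes that fell, 5.42% that rose and 10.4% that did either (edgeR quasi-likelihood test, Benjamini-Hochberg adjusted p under 0.05). The same 3 fell, and none rose, in separated embryos, where 4.7% of all genes fell, 6.41% rose and 11.1% did either. The adaptor and 1 catalytic subunit of each kind thus had lower message at the later stage, while Cnot6, Cnot8, Ythdf2, Tut4 and Tut7 were not called and the Zfp36l2 difference had a wide interval. Levels of 2 members, Btg4 and Cnot7, were lower in all 4 intact 4-cell embryos than in all 5 intact 2-cell embryos, against 7.1% of all genes. Zfp36l2 was higher in every intact 4-cell embryo, against 9.87%. In separated embryos Btg4, Cnot6l and Cnot7 did not overlap between stages, against 6.94% of genes lower and 7.17% higher. The median log2 fold change of all tested genes was 0 in intact and -0.15 in separated embryos. The fit holds batch as a term, so the 4-cell side of the separated comparison rests on the 3 batch 1 embryos. Both stage comparisons come from 1 fit but share no embryos.

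**Figure D1:**
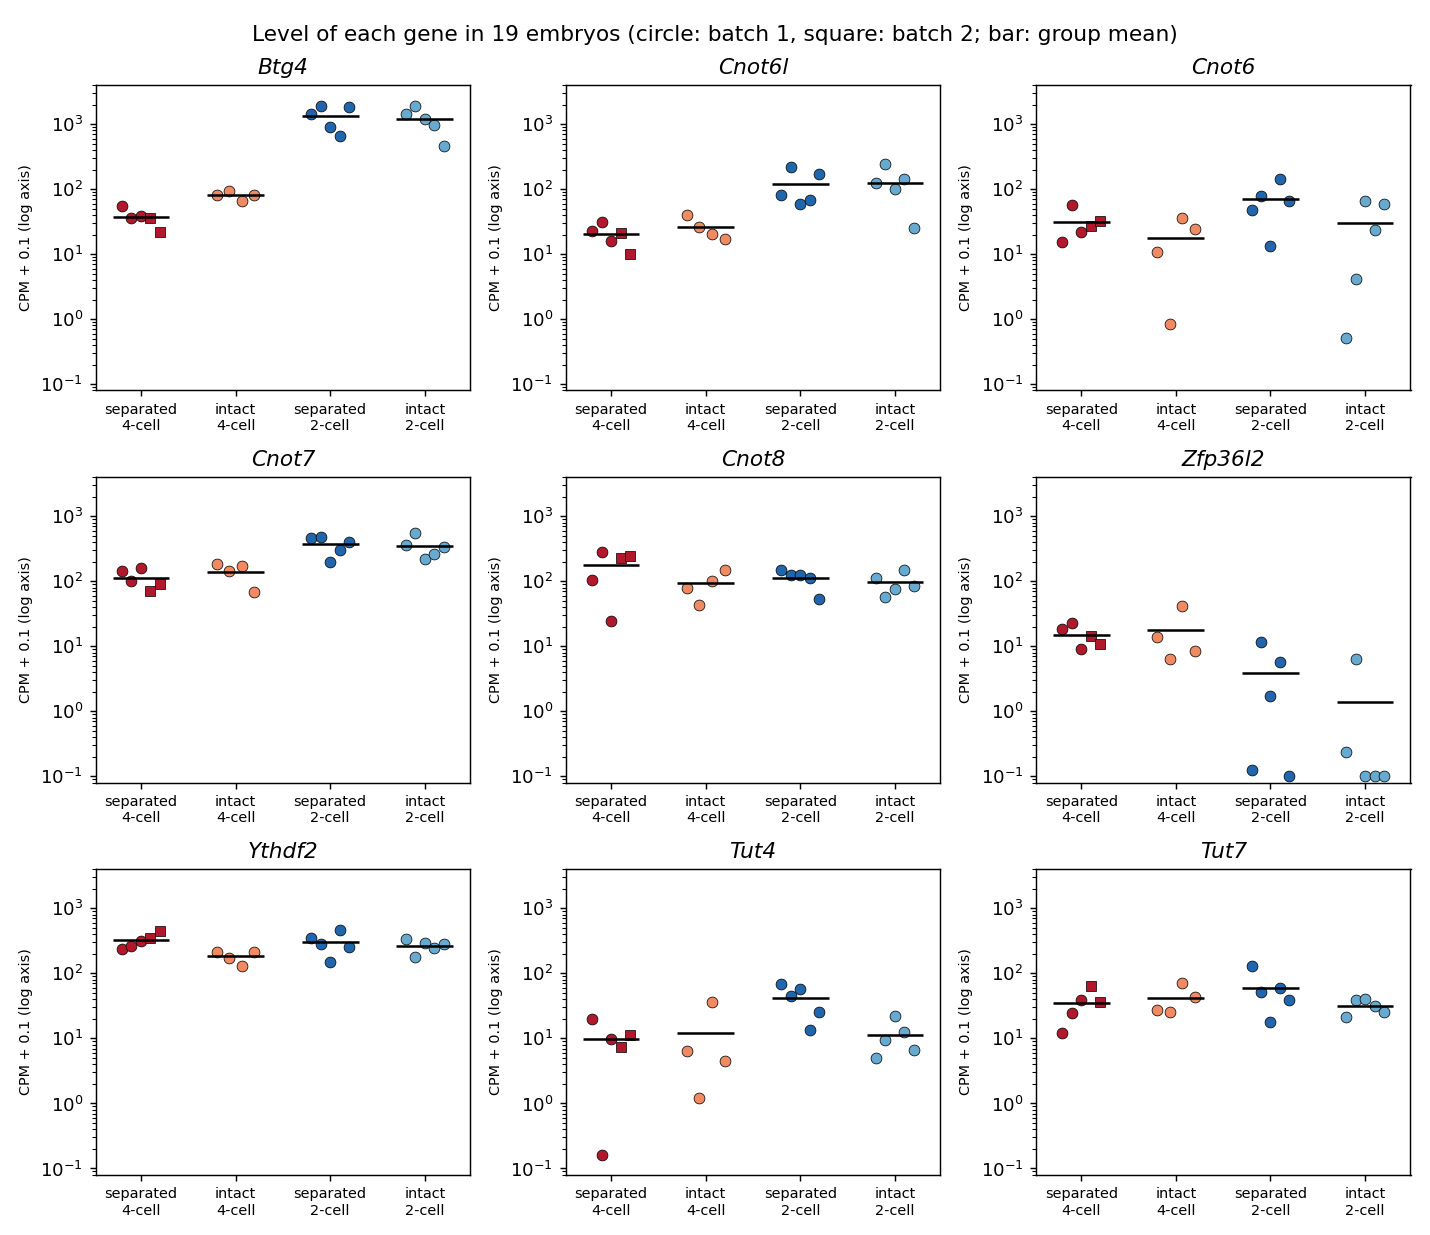
CPM plus 0.1 (log axis) of each gene in the 5 separated 4-cell, 4 intact 4-cell, 5 separated 2-cell and 5 intact 2-cell embryos; points are embryos, squares are batch 2 and bars are group means. Btg4 lies at 21.8 to 92.3 CPM in 4-cell embryos and at 462.3 to 1893 CPM in 2-cell embryos, while Cnot8, Ythdf2 and Tut7 overlap between stages.

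Btg4 (ENSMUSG00000032056, chr9:51060901-51119875, plus strand, GRCm38) encodes the oocyte adaptor that links CCR4-NOT to maternal messages. It measured 81.9, 92.3, 66.3 and 81.3 CPM in intact 4-cell embryos and 1429, 1890, 1200, 961.1 and 462.3 CPM in intact 2-cell embryos. The lowest 2-cell embryo, replicate 5, still stood 5-fold above the highest 4-cell embryo. The log2 fold change was -3.89 ± 0.41 (SE), which is 14.8-fold lower (edgeR adjusted p = 9.995e-06). In separated embryos it measured 55.6, 35.4, 38.4, 35.9 and 21.8 CPM at the 4-cell stage, the last pair from batch 2, and 1407, 1893, 904.5, 653.6 and 1831 CPM at the 2-cell stage. Again the stages did not overlap, and the fall was 31.0-fold (log2 fold change -4.96 ± 0.49, edgeR adjusted p = 1.3e-05). Leaving out each of the 19 embryos kept both calls, with log2 fold changes of -4.09 to -3.66 in intact and -5.17 to -4.84 in separated embryos. With limma voom and quality weights the sizes were alike (-3.73 and -4.82) but the adjusted p rose to 0.118 and 0.0975, and with each blastomere as a library to 0.889 and 0.758. Over both kinds of embryo, the 9 4-cell embryos reached 92.3 CPM at most, and the 10 2-cell embryos started at 462.3 CPM, a separation seen in 3.06% of genes on the lower and 2.31% on the higher side.

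Cnot6l (ENSMUSG00000034724, chr5:96070333-96164171, minus strand) encodes the CCR4-type nuclease that is abundant in mouse oocytes. It measured 39.9, 26.1, 20.1 and 16.8 CPM in intact 4-cell embryos and 124.1, 239, 99.9, 141.4 and 25.4 CPM in intact 2-cell embryos. The groups overlapped only through 2-cell replicate 5, which was also the lowest 2-cell embryo for Btg4. The log2 fold change was -2.29 ± 0.60, or 4.90-fold lower (edgeR adjusted p = 0.01895). In separated embryos Cnot6l measured 22.6, 31.3, 15.7, 20.9 and 9.93 CPM at the 4-cell stage and 80.3, 217.5, 58.4, 66.7 and 170.2 CPM at the 2-cell stage. These groups did not overlap, and the log2 fold change was -2.35 ± 0.67 (5.11-fold lower, edgeR adjusted p = 0.02985). The intact call was lost without intact 2-cell replicate 2 (edgeR adjusted p = 0.0529) or intact 4-cell replicate 5 (0.0584). The separated call was lost without separated 2-cell replicate 2 (edgeR adjusted p = 0.0565) or separated 4-cell replicate 2 (0.0846), 3 (0.0527) or 4 (0.108). With limma voom and quality weights the adjusted p was 0.0709 in intact and 0.0529 in separated embryos, and with each blastomere as a library the intact one was 0.339.

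Its paralogue Cnot6 (ENSMUSG00000020362, chr11:49671503-49712723, minus strand) varied far more between embryos of 1 group. It measured 10.6, 0.744, 35.2 and 24.4 CPM in intact 4-cell embryos, against 0.416, 4.11, 65.7, 23.6 and 58.1 CPM in intact 2-cell embryos. Separated 4-cell embryos had 15.1, 56.8, 22.0, 26.8 and 32.1 CPM, and separated 2-cell embryos 47.2, 77.3, 13.0, 143.6 and 65.4 CPM. Stages overlapped in both kinds of embryo, with log2 fold changes of -0.77 (95% interval -2.95 to 1.4, edgeR adjusted p = 0.686) and -1.15 (-3.57 to 1.28, adjusted p = 0.581). The intervals include both no change and a fall as large as that of Cnot6l. With each blastomere as a library in limma, the separated value was -3.79 and passed (adjusted p = 0.00745).

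Cnot7 (ENSMUSG00000031601, chr8:40492540-40515847, minus strand) encodes a CAF1-type nuclease of the complex. It measured 183.1, 141.8, 170.5 and 67.6 CPM in intact 4-cell embryos and 360, 552.2, 216.8, 258.7 and 335.7 CPM in intact 2-cell embryos. No 4-cell embryo reached the lowest 2-cell embryo, and the log2 fold change was -1.29 ± 0.36 (2.45-fold lower, edgeR adjusted p = 0.02828). Separated embryos measured 143.4, 100.7, 162, 71.1 and 92.1 CPM at the 4-cell stage and 462.6, 484.4, 194.7, 301.8 and 405.4 CPM at the 2-cell stage. They did not overlap either, with a log2 fold change of -1.45 ± 0.40 (2.73-fold lower, edgeR adjusted p = 0.02731). Cnot7 was the second member whose 4-cell embryos (at most 183.1 CPM) all stood below all 2-cell embryos (at least 194.7 CPM). The intact call was lost without intact 2-cell replicate 1 (edgeR adjusted p = 0.0505) or 2 (0.0729), without intact 4-cell replicate 3 (0.0503) or 5 (0.0624), and with no filter on low counts (0.0513). Limma voom with quality weights gave an adjusted p of 0.0512 there, and the fit with each blastomere as a library 0.26. The separated call was lost without separated 4-cell replicate 2 (edgeR adjusted p = 0.067) or 3 (0.0923). The exons of Cnot7 share 247 bases with Zdhhc2 on the opposite strand, whose own level was at most 10.2 CPM in any embryo. Its counts were not whole in 24 of 39 libraries, so the authors' software split some reads.

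Cnot8 (ENSMUSG00000020515, chr11:58104153-58118594, plus strand), the other CAF1-type nuclease, did not share the fall. It measured 79.0, 43.5, 101.3 and 151.4 CPM in intact 4-cell embryos and 113.7, 56.2, 75.1, 150.1 and 84.6 CPM in intact 2-cell embryos. Separated 4-cell embryos had 103.7, 279.7, 24.7, 226.2 and 242.1 CPM, and separated 2-cell embryos 148.4, 124.1, 124.9, 111.9 and 52.5 CPM. The separated 4-cell embryos held both the highest and the lowest Cnot8 levels of all 19, and both batch 2 embryos were among the high ones. The log2 fold change was -0.03 (95% interval -1.13 to 1.06, edgeR adjusted p = 0.979) in intact and 0.28 (-0.91 to 1.46, adjusted p = 0.818) in separated embryos.

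As a share of the counts of both CAF1-type genes, Cnot8 made up 55.5 ± 27.4% in separated 4-cell embryos and 24.5 ± 10.1% in separated 2-cell embryos (SD, n = 5 each). It made up 40.0 ± 20.2% in intact 4-cell embryos (n = 4) and 23.2 ± 9.93% in intact 2-cell embryos (n = 5). The shares were computed after the levels had been seen, and are given with no test. They overlapped between stages in both kinds of embryo. In 4 of the 9 4-cell embryos Cnot8 held over 69% of the pair, while no 2-cell embryo exceeded 39.1%. Both batch 2 embryos were among these 4, at 76.1 and 72.4%, and batch 2 holds no 2-cell embryo. Separated 4-cell embryos of batch 1 alone had 42.9 ± 30.2% (SD, n = 3), from 13.2 to 73.5%. The shares here are of counts and are not scaled by length. Per kilobase of annotated exon, Cnot8 held up to 58.6% of the pair in a 2-cell embryo, and 83.2 to 87.5% in those 4 4-cell embryos. For the CCR4-type pair, the share of Cnot6 was 59.1 ± 13.2% in separated 4-cell and 35.5 ± 19.5% in separated 2-cell embryos, and 36.7 ± 29.6% in intact 4-cell and 25.1 ± 29.5% in intact 2-cell embryos, with overlap throughout. The coding sequences of Cnot7 and Cnot8 were 72.8% identical over 850 aligned bases, and those of Cnot6 and Cnot6l 74.5% over 1638. The longest stretch without a difference was 20 bases in each pair, shown because a read within it alone could not be given to 1 gene.
Cnot7 and Cnot8, coding bases 463 to 482 of both: TCATTTCACAGTGGTTATGA
Cnot6 (coding bases 1300 to 1319) and Cnot6l (1294 to 1313): CATAAAGACTTCAAGGAACT
Tut4 and Tut7 were 67.2% identical, with a longest shared stretch of 15 bases.

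**Figure D2:**
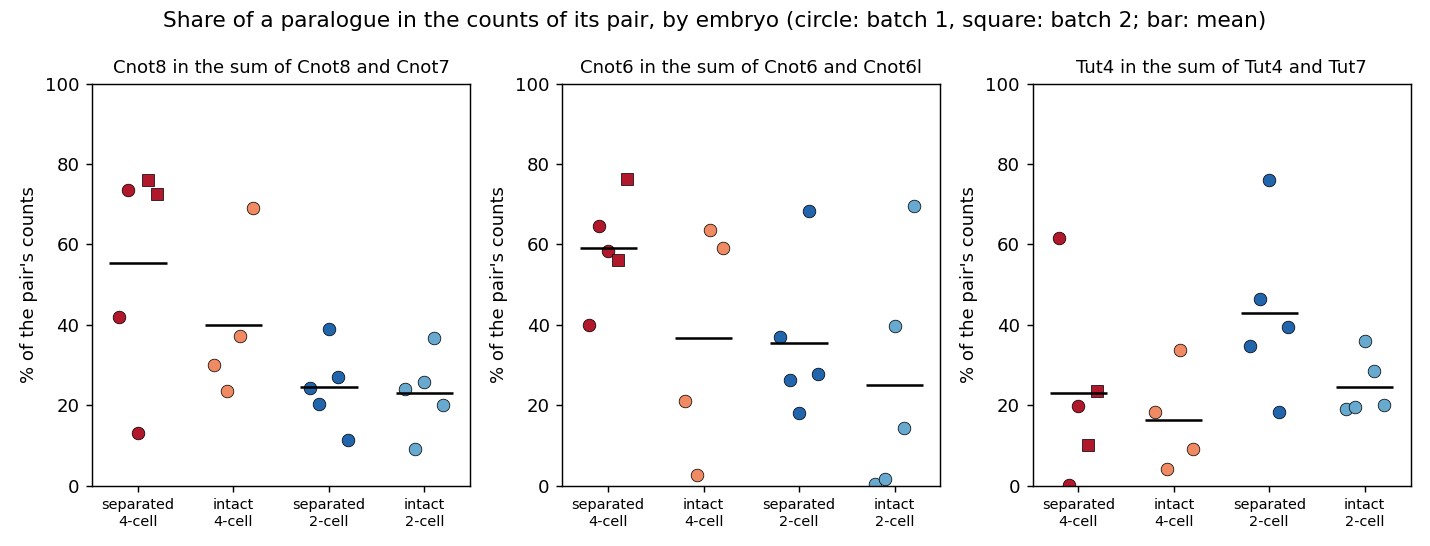
Percent of a paralogue pair's counts held by Cnot8, Cnot6 and Tut4 in each embryo, by group; squares are batch 2 and bars are group means. Cnot8 reaches 72.4 to 76.1% in 3 separated 4-cell embryos and 69.1% in 1 intact 4-cell embryo, against at most 39.1% in 2-cell embryos. Both batch 2 embryos are among those 3.

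Zfp36l2 (ENSMUSG00000045817, chr17:84183931-84187947, minus strand) encodes a zinc finger protein that binds AU-rich elements and recruits deadenylases. It measured 13.7, 6.33, 41.3 and 8.30 CPM in intact 4-cell embryos and 0.139, 6.25, 0, 0 and 0 CPM in intact 2-cell embryos. The 4-cell embryos all stood above the 2-cell embryos, but replicate 2 of the 2-cell embryos, with 38 of their 39 counts, came within 0.1 CPM of the lowest 4-cell embryo. The log2 fold change of 3.78 ± 1.88 did not pass the test (95% interval -0.14 to 7.70, edgeR adjusted p = 0.1945). Without intact 2-cell replicate 2 it was 8.91 and passed (edgeR adjusted p = 0.0196), as it did with limma voom and quality weights (5.94, adjusted p = 0.00309). In separated embryos Zfp36l2 measured 18.2, 22.5, 8.94, 14.1 and 10.8 CPM at the 4-cell stage and 0.0254, 11.6, 1.6, 5.58 and 0 CPM at the 2-cell stage. These overlapped through 2-cell replicate 2, and the log2 fold change of 2.14 (95% interval -1.74 to 6.01) did not pass (edgeR adjusted p = 0.504; 0.029 with limma voom and quality weights, where it was 5.98). All 9 4-cell embryos had counts, while 4 of 5 separated and 2 of 5 intact 2-cell embryos had any. At 2-cell totals of 7.16 M counts and more, 3 counts correspond to under 1 CPM, which is below the lowest 4-cell level of 6.33 CPM.

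Ythdf2 (ENSMUSG00000040025, chr4:132184912-132212303, minus strand) encodes a reader of N6-methyladenosine that leads marked messages to CCR4-NOT. It was among the steadier members, with 217.1, 169.7, 127.9 and 215.8 CPM in intact 4-cell embryos and 335.5, 180, 295.3, 248.4 and 283.7 CPM in intact 2-cell embryos. Separated 4-cell embryos had 238.3, 268.5, 319.5, 348.2 and 443.2 CPM, and separated 2-cell embryos 351.3, 282.2, 150, 469.7 and 255.2 CPM. Stages overlapped in both kinds. The log2 fold change was -0.56 (95% interval -1.20 to 0.09, edgeR adjusted p = 0.244) in intact and -0.13 (-0.83 to 0.56, adjusted p = 0.857) in separated embryos. Neither interval reaches the fold change of Cnot7 in the same kind of embryo, though the difference between the genes was not tested.

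Tut4 and Tut7 encode the terminal uridylyltransferases. Tut4 (ENSMUSG00000034610, chr4:108459426-108559421, plus strand) measured 6.22, 1.12, 36.2 and 4.39 CPM in intact 4-cell embryos and 4.99, 9.37, 22.3, 12.5 and 6.47 CPM in intact 2-cell embryos. Separated 4-cell embryos had 19.5, 0.0640, 9.79, 7.20 and 11.3 CPM, and separated 2-cell embryos 69.4, 45.2, 57.0, 13.4 and 25.4 CPM. The stages overlapped in each kind of embryo, and the lowest value, in separated 4-cell replicate 3, was a single count. The log2 fold change was 0.11 (95% interval -2.12 to 2.33, edgeR adjusted p = 0.965) in intact and -2.10 (-4.75 to 0.54, adjusted p = 0.293) in separated embryos. With each blastomere as a library in limma, the separated value was -4.34 and passed (adjusted p = 0.0213). Its sign in intact embryos changed without intact 4-cell replicate 4, where it was -1.64.

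Tut7 (ENSMUSG00000035248, chr13:59771561-59823147, minus strand) measured 27.5, 25.7, 70.9 and 43.5 CPM in intact 4-cell embryos and 21.1, 38.3, 39.9, 31.2 and 25.9 CPM in intact 2-cell embryos. Separated 4-cell embryos had 12.2, 24.2, 39.5, 63.5 and 36.6 CPM, and separated 2-cell embryos 131, 52.4, 17.9, 59.1 and 39 CPM. Groups overlapped, with log2 fold changes of 0.42 (95% interval -0.78 to 1.63, edgeR adjusted p = 0.692) and -1.24 (-2.62 to 0.14, adjusted p = 0.226). The limma fit over single blastomeres gave -3.48 in separated embryos, which passed (adjusted p = 0.00672). The exons of Tut7 share 1299 bases with the antisense gene Etohd2 (at most 12.4 CPM), and 19 of its 36 non-zero counts were not whole. Intact 4-cell replicate 4 held the highest intact 4-cell level of Tut4, Tut7, Cnot6 and Zfp36l2 alike.

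**Figure D3:**
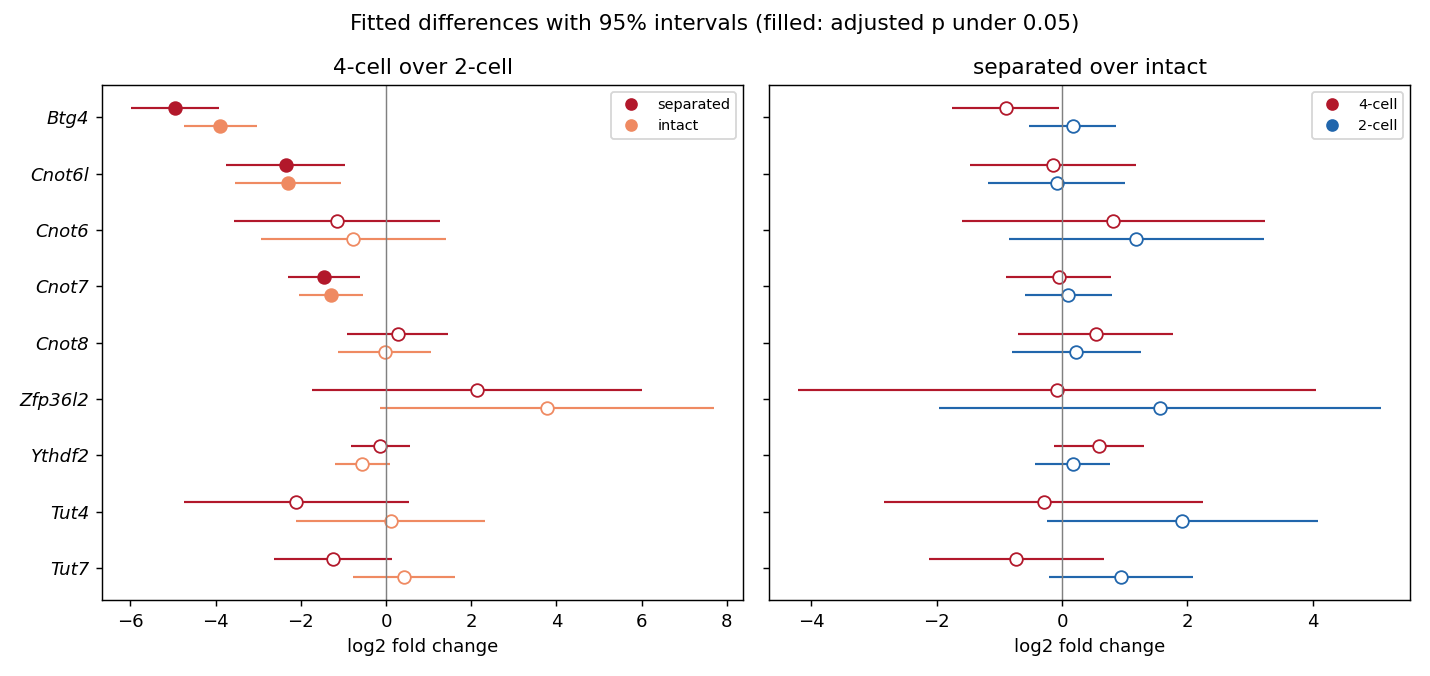
Log2 fold changes of the 9 genes with 95% intervals, 4-cell over 2-cell (left) and separated over intact (right); filled points passed an edgeR adjusted p of 0.05. Btg4, Cnot6l and Cnot7 are filled below 0 in both stage comparisons, and no point is filled on the right.

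Separation was compared at each stage, where it cannot be told apart from the input per library and the number of libraries summed. Batch is a term of the fit, so log2 fold changes at the 4-cell stage rest on the 3 batch 1 separated embryos. Ranges and overlap at that stage use all 5 separated embryos. None of the 9 genes was called by edgeR at the 4-cell stage, where 0% of all genes were, or at the 2-cell stage, where 0.0142% were. At an unadjusted p under 0.05, 1 member (Btg4) and 844 of 14120 genes passed at the 4-cell stage, and 0 members and 1481 genes at the 2-cell stage. DESeq2 called 379 and 493 genes, and no member. At the 4-cell stage Btg4 was lower in all 5 separated embryos (21.8 to 55.6 CPM) than in all 4 intact embryos (66.3 to 92.3 CPM), which 0.616% of genes also showed. Its log2 fold change was -0.90 ± 0.41 and did not pass (unadjusted p = 0.0407, edgeR adjusted p = 0.8). Ythdf2 was higher in all 5 separated embryos (238.3 to 443.2 CPM) than in all 4 intact ones (127.9 to 217.1 CPM), as were 1.76% of genes, with a log2 fold change of 0.59 ± 0.34 (edgeR adjusted p = 0.823). Separated 4-cell embryos of batch 1 alone lay at 35.4 to 55.6 CPM for Btg4 and 238.3 to 319.5 CPM for Ythdf2. At the 2-cell stage every member overlapped between separated and intact embryos, where 0.432% of genes were wholly higher and 0.12% wholly lower, with log2 fold changes of -0.09 for Cnot6l to 1.92 for Tut4. The largest of these, Tut4 at 13.4 to 69.4 CPM in separated and 4.99 to 22.3 CPM in intact 2-cell embryos, had an edgeR adjusted p of 0.609.

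The fall at the 4-cell stage was not shown to differ between separated and intact embryos. Here too, batch as a term leaves the separated 4-cell side to the batch 1 embryos. The interaction of stage and separation was -1.07 ± 0.53 for Btg4 (edgeR adjusted p = 0.589), -0.06 ± 0.82 for Cnot6l (adjusted p = 1) and -0.16 ± 0.52 for Cnot7 (adjusted p = 1), and 0% of all genes passed by edgeR (1228 genes and no member at an unadjusted p under 0.05, 523 genes and no member by DESeq2). The 95% interval for Btg4, -2.17 to 0.03 on the log2 scale, does not exclude a difference of 4-fold.

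Within separated 4-cell embryos, batch 2 (2 embryos, 86.8 to 103 M counts) was set beside batch 1 (3 embryos, 13 to 15.8 M counts), and none of the 9 genes was called by edgeR or DESeq2, or at an unadjusted p under 0.05, against 2.03% of all genes (0.269% higher and 1.76% lower). Cnot7 measured 71.1 and 92.1 CPM in batch 2, against 143.4, 100.7 and 162 CPM in batch 1, without overlap, as did 16.4% of all genes on the lower side. Ythdf2 measured 348.2 and 443.2 CPM in batch 2, against 238.3, 268.5 and 319.5 CPM in batch 1, also without overlap, as did 27.9% of genes on the higher side. The levels of Btg4 and Cnot8 overlapped between batches. Within batch 1 alone, Btg4 averaged 43.1 ± 10.9, Cnot6l 23.2 ± 7.83 and Cnot7 135.4 ± 31.4 CPM in separated 4-cell embryos (SD, n = 3), against 1338 ± 550.5, 118.6 ± 71.1 and 369.8 ± 120.7 CPM in separated 2-cell embryos (n = 5).

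Levels of different genes are compared per kilobase of annotated exon. In intact 4-cell embryos Ythdf2 led with 39.9 ± 9.32 CPM per kilobase, followed by Cnot8 (35.6 ± 17.1), Btg4 (31.5 ± 4.18) and Cnot7 (24.2 ± 8.89), each within the SD of its neighbour. In intact 2-cell embryos Btg4 led with 465 ± 207.9 CPM per kilobase, far above Cnot7 (59.2 ± 22.3), Ythdf2 (58.7 ± 12.8) and Cnot8 (36.4 ± 13.9), which overlapped each other. The other 5 genes formed a low group, between 1.38 CPM per kilobase for Tut4 and 4.94 for Zfp36l2 in intact 4-cell embryos, and between 0.362 for Zfp36l2 and 12.2 for Cnot6l in intact 2-cell embryos. In separated 4-cell embryos Ythdf2 (70.8 ± 17.4) and Cnot8 (66.5 ± 40.6) stood above Cnot7 (19.6 ± 6.46) and Btg4 (14.6 ± 4.71). Separated 2-cell embryos kept Btg4 first (523.4 ± 215.4), with Ythdf2 (66.0 ± 25.9) and Cnot7 (63.5 ± 20.7) next. The highest level per kilobase was thus that of Btg4 in both 2-cell groups, under either length used. The order in 4-cell embryos, and that below Btg4 in separated 2-cell embryos, depends on that length. With the longest coding transcript, Btg4 (54.1) led in intact and Cnot8 (83.5) in separated 4-cell embryos, while Ythdf2 had 44.2 and 78.4 CPM per kilobase. In separated 2-cell embryos Cnot7 (124) then stood above Ythdf2 (73.1). In intact 2-cell embryos Cnot6l (39.7) then lay near Cnot8 (45.7) and outside the low group.

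Sister blastomeres of a separated embryo were 1 library each, so differences between them have no replicate. In the 4-cell embryos of batch 2, which had higher totals per embryo, Btg4 had 64.1, 44.9, 44.3 and 30.1 CPM in the sisters of embryo 6 and 17.3, 27.5, 38.4 and 24.5 CPM in those of embryo 7. Depth also differed between sisters. The blastomere of embryo 7 at 27.5 CPM had 76 Btg4 counts, and its sister at 17.3 CPM had 558. Levels from summed counts thus weigh deeper sisters more. The pooled SD between sisters on the log2 scale was 0.459 for Btg4, 0.455 for Cnot7 and 0.325 for Ythdf2 in batch 2, against a median of 0.585 over 6906 genes with a mean of at least 10 CPM. Cnot6 (0.444) and Cnot8 (0.526) also lay below that median, while Cnot6l (0.807), Tut7 (0.974), Zfp36l2 (1.11) and Tut4 (1.94) lay above it. With 2 embryos some of these values rest on 1 of them. The SD of Cnot7 was 0.594 without embryo 6 and 0.249 without embryo 7, and that of Zfp36l2 1.5 without embryo 6 and 0.441 without embryo 7. In the 4-cell embryos of batch 1 the sisters spread further. Btg4 measured 78.4, 44.1, 7.35 and 46.9 CPM in the sisters of embryo 2, 37.7, 36.3, 3.22 and 57.4 CPM in embryo 3, and 14.3, 53.3, 32.9 and 43.3 CPM in embryo 4. In embryos 2, 3 and 4 the highest sister stood 10.7-, 17.9- and 3.73-fold above the lowest, which had 25, 12 and 66 Btg4 counts. The SD between sisters was 1.45 for Btg4, 1.41 for Cnot7 and 0.416 for Ythdf2 in batch 1, against a median of 2.43 over the same genes. Cnot8 (1.11) lay below that median too, and without embryo 2 the SD was 0.822 for Cnot7 and 0.448 for Cnot8. Tut4 (3.13), Tut7 (3.26), Cnot6l (3.35), Zfp36l2 (3.4) and Cnot6 (3.69) lay above it. For Cnot6l the sisters of embryo 3 fell into present and near-absent, with 0, 56.7, 0.268 and 55.9 CPM, and 3 of 12 batch 1 blastomeres had 3 or fewer counts. Batch, depth and embryo cannot be told apart in this difference.

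At the 2-cell stage sisters were close for the abundant members. Ythdf2 measured 395.2 and 303.6, 295.7 and 294.4, 170.9 and 170.2, 456.5 and 611.4, and 240.8 and 332.5 CPM in the sister pairs of the 5 embryos. The highest over the lowest sister was at most 1.38 for Ythdf2, 1.45 for Cnot7 and 1.59 for Btg4. The SD between sisters was 0.232 for Ythdf2, 0.239 for Cnot7 and 0.426 for Btg4, against a median of 2.04 over the same genes. Cnot8 (0.541), Cnot6l (0.626), Tut7 (0.951) and Cnot6 (0.964) were below that median, and Zfp36l2 (2.64, but 1.4 without embryo 4) and Tut4 (3.70) above it. No adjustment for a gene's level was made, and the spread was not tested between stages.

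Tut4 was the member with the widest spread at the 2-cell stage and in batch 2 of the 4-cell stage. Its SD between sisters was 1.94 in batch 2 and 3.13 in batch 1 of the 4-cell stage, and 3.70 at the 2-cell stage, each above the median of all genes. It was detected in all 8 batch 2 4-cell blastomeres, and had no count in 6 of 12 batch 1 4-cell and 2 of 10 2-cell blastomeres. In 2-cell embryo 2 a blastomere had 60.2 CPM (1976 counts) and its sister had none. Zfp36l2 likewise had no count in 3 of 12 batch 1 4-cell blastomeres and 4 of 10 2-cell blastomeres, and in 2-cell embryo 4 all 283 counts came from 1 sister. A zero in such a library can be a message lost in preparation, so it is not read as absence from the cell.

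**Figure D4:**
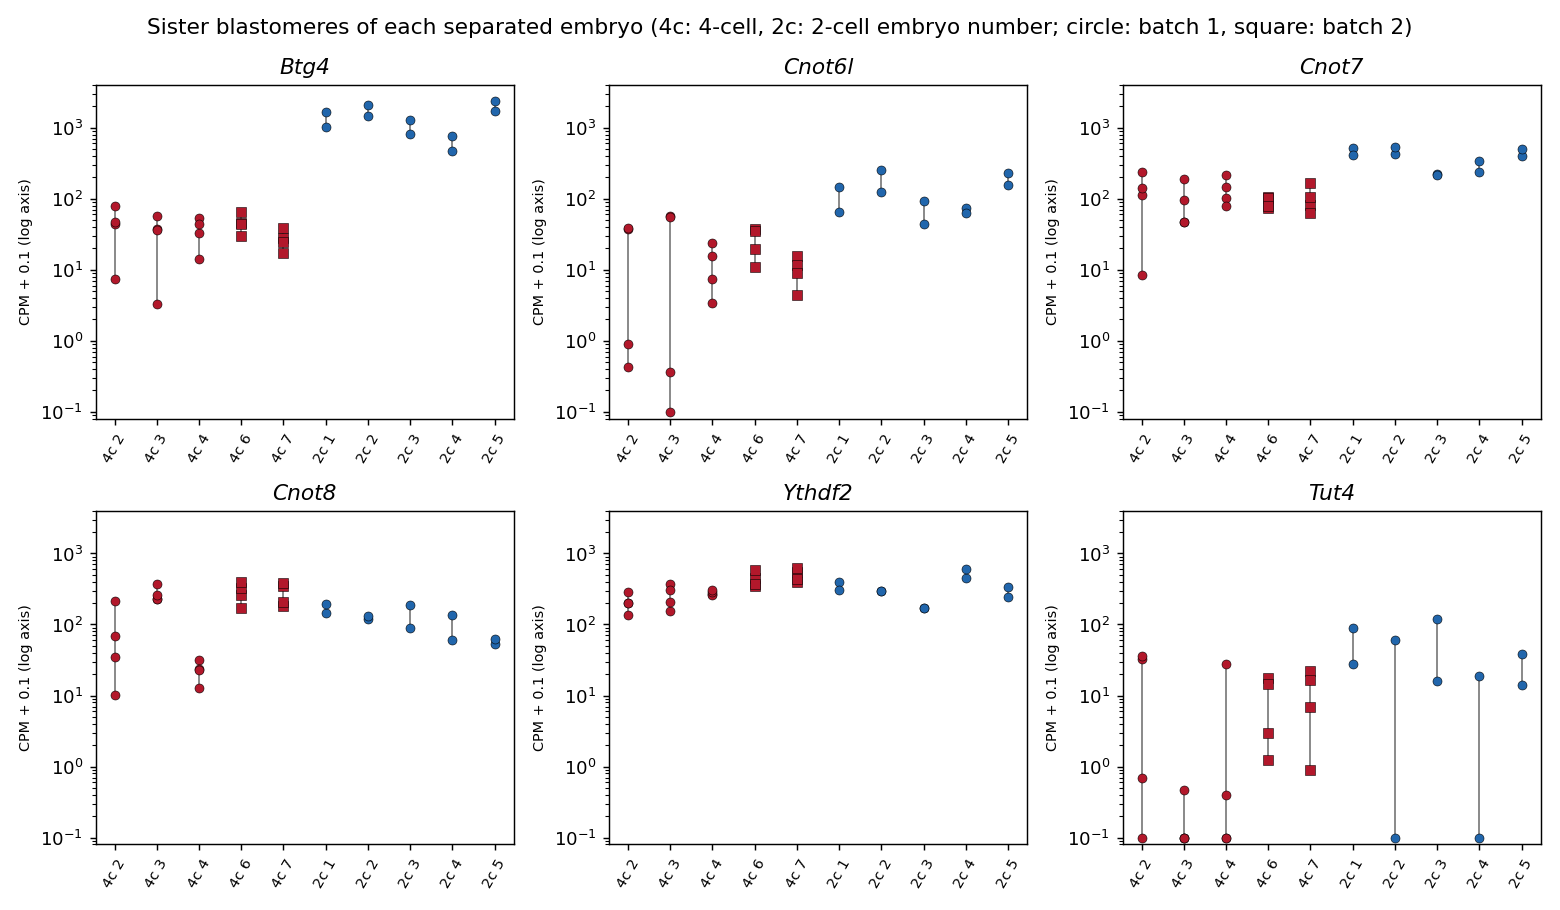
CPM plus 0.1 (log axis) of 6 genes in each blastomere of the 5 separated 4-cell embryos (4 blastomeres each) and the 5 separated 2-cell embryos (2 each); lines join the lowest and highest sister and squares are batch 2. Sisters lie close for Ythdf2 in both stages and for Btg4 and Cnot7 at the 2-cell stage, while Tut4 reaches 0 beside sisters at 18.6 CPM or more in 2-cell embryos 2 and 4.

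Across the 19 embryos the levels of the called members moved together, with Pearson's r of log2 CPM of 0.912 for Btg4 and Cnot6l, 0.872 for Btg4 and Cnot7 and 0.821 for Cnot6l and Cnot7. The r was -0.692 for Btg4 and Zfp36l2 and between -0.18 and 0.47 for Btg4 and the other members. These values are descriptions over embryos of both stages, which also share depth and batch, and no r was computed within a stage. Among 6012 other genes of mean level of at least 10 CPM, the patterns most like Btg4 were those of the homeobox gene Obox5 (r = 0.985) and the oogenesin Oog3 (0.979). Those most like Cnot6l were Strn (0.934) and Tgfb2 (0.929), and those most like Cnot7 were Kbtbd8 (0.920) and Ppp1r12a (0.914). Zfp36l2 was most like Lrpprc (0.906) and Ttc4 (0.893), both near 0.1 CPM in intact 2-cell embryos. Their counterparts were Tmem68 (0.838) and Trap1 (0.823) for Cnot6, Zfp574 (0.746) and Acot8 (0.725) for Cnot8, Emc8 (0.839) and Bag5 (0.833) for Ythdf2, Arl1 (0.875) and Hsf1 (0.848) for Tut4, and Cep192 (0.791) and Zfp217 (0.707) for Tut7. The closest gene to Cnot8 thus had a lower r than the closest genes to the other catalytic subunits.

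Other genes of the pathway, in 7 lists of 77 genes of which 72 were tested, moved in both directions. In intact embryos 11 rose and 9 fell, against 5.42% and 4.99% of all genes, and in separated embryos 5 rose and 9 fell, against 6.41% and 4.7%. The median log2 fold change of the 72 was 0.44 in intact and 0.37 in separated embryos, beside medians of 0 and -0.15 for all genes. The lists were drawn up with earlier results of these data known. With each blastomere as a library in limma, the intact calls of Cnot1, Tob1, Angel2, Tnrc6b, Ythdf3, Tent4b, Dcp2, Lsm3, Wdr61 and Exosc6 given next were lost, with adjusted p of 0.0638 for Wdr61 to 0.468 for Lsm3. Levels are means ± SD over 4 intact 4-cell embryos and 5 embryos of each other group, and errors of log2 fold changes are SE.

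Among 7 core and regulatory CCR4-NOT subunits, Cnot1, the scaffold of the complex, rose in intact embryos to 275.2 ± 44.5 CPM, against 86.5 ± 38.7 CPM at the 2-cell stage (log2 fold change 1.67 ± 0.36, edgeR adjusted p = 0.00539). No subunit fell, and in separated embryos none was called (Cnot1 had 236.9 ± 80.7 CPM at the 4-cell and 124.8 ± 35.0 CPM at the 2-cell stage, edgeR adjusted p = 0.137). Of 5 further BTG and TOB adaptors, Tob1 fell in intact embryos (11.6 ± 10.7 CPM at the 4-cell stage against 119.3 ± 73.5 CPM at the 2-cell stage, log2 fold change -3.37 ± 0.89, edgeR adjusted p = 0.0199), a call lost without intact 4-cell replicate 1 (0.0611) or 5 (0.0536). In separated embryos none of the 5 was called.

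Of 7 genes listed as other deadenylases, the same 2, Pan3 and Angel2, fell in both kinds of embryo and none rose. The list also holds relatives of deadenylases, and no activity was measured. Pan3, a subunit of the PAN2-PAN3 deadenylase, measured 51.7 ± 14.5 CPM in intact 4-cell and 434.9 ± 150.7 CPM in intact 2-cell embryos (log2 fold change -3.07 ± 0.37, edgeR adjusted p = 5.62e-05). It measured 53.3 ± 27.9 CPM in separated 4-cell and 362.2 ± 27.2 CPM in separated 2-cell embryos (log2 fold change -2.49 ± 0.41, edgeR adjusted p = 0.000936). Angel2, a relative of the CCR4-type nucleases, measured 24.7 ± 18.5 CPM in intact 4-cell and 240.1 ± 76.9 CPM in intact 2-cell embryos (log2 fold change -3.28 ± 0.54), and 25.9 ± 11.8 CPM in separated 4-cell and 334.2 ± 128.1 CPM in separated 2-cell embryos (-3.74 ± 0.63), with edgeR adjusted p of 0.000794 and 0.00114. Both genes kept both calls without any 1 embryo. The log2 fold changes of Pan3 and Angel2 lie between those of Cnot6l and Btg4 in each kind of embryo.

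Of 15 tested message-binding recruiters, 2 rose and 2 fell in intact embryos, and 1 rose and 3 fell in separated embryos. Tnrc6b, a GW182 protein that ties microRNA targets to deadenylases, fell to 10.6 ± 2.40 CPM in intact 4-cell embryos, against 84.8 ± 53.9 CPM in intact 2-cell embryos (log2 fold change -3 ± 0.56, edgeR adjusted p = 0.0021). In separated embryos it fell too (log2 fold change -2.44 ± 0.61, edgeR adjusted p = 0.0162), which failed without separated 4-cell replicate 2 (0.0668) or 4 (0.0607). Its relative Tnrc6a moved the other way in intact embryos, with 122 counts in the 4 4-cell embryos and 2 counts in the 5 2-cell embryos (edgeR adjusted p = 0.0175). In separated embryos Tnrc6a was not called (log2 fold change 0.59 ± 1.55, edgeR adjusted p = 0.862), and 4 of the 5 2-cell embryos had counts (596 in sum). Ythdf3, a reader of the same mark as Ythdf2, fell in intact embryos (39.9 ± 24.0 CPM at the 4-cell stage against 164.7 ± 54.1 CPM at the 2-cell stage, edgeR adjusted p = 0.0106). It was also called lower in separated embryos (log2 fold change -1.79 ± 0.53, edgeR adjusted p = 0.0363). In separated embryos the nuclear reader Ythdc1 fell (58.2 ± 28.8 CPM at the 4-cell stage against 234.1 ± 53.1 CPM at the 2-cell stage, edgeR adjusted p = 0.0148, but 0.0667 without separated 4-cell replicate 2 and 0.056 with no filter).

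Of 6 further terminal nucleotidyltransferases, Tent4b rose in both kinds of embryo, to 87.3 ± 23.8 CPM in intact 4-cell against 30.3 ± 12.3 CPM in intact 2-cell embryos, and 99.6 ± 26.1 CPM in separated 4-cell against 32.9 ± 14.6 CPM in separated 2-cell embryos. Its edgeR adjusted p was 0.0383 and 0.0446, and each call held in 5 of 19 fits with 1 embryo left out. Neither call held with no filter on low counts (adjusted p = 0.207 and 0.249) or with the compared groups alone (0.0663 and 0.0832). Its paralogue Tent4a fell in separated embryos (14.3 ± 8.59 CPM at the 4-cell stage against 85.7 ± 23.5 CPM at the 2-cell stage, edgeR adjusted p = 0.024, but 0.0798 and 0.0858 without separated 4-cell replicate 3 or 4).

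Of 18 tested decapping and 5′ decay genes, 3 rose and 3 fell in intact and 2 rose and 2 fell in separated embryos. The decapping enzyme Dcp2 fell to 14.6 ± 8.12 CPM in intact 4-cell against 70.6 ± 23.6 CPM in intact 2-cell embryos, and 17.3 ± 4.46 CPM in separated 4-cell against 94.8 ± 42.3 CPM in separated 2-cell embryos, with log2 fold changes of -2.27 and -2.44. Its edgeR adjusted p was 0.00997 and 0.0143, but 0.0745 and 0.0678 with no filter on low counts, and 0.0606 in separated embryos without 4-cell replicate 2. Lsm5, of the ring of Lsm proteins that binds shortened tails, rose in both, to 276 ± 83.0 CPM in intact 4-cell against 34.6 ± 24.9 CPM in intact 2-cell embryos, and 236.9 ± 164 CPM in separated 4-cell against 45.6 ± 28.6 CPM in separated 2-cell embryos (edgeR adjusted p = 0.00076 and 0.00142). Lsm3 of the same ring rose in intact embryos (edgeR adjusted p = 0.0355), a call that held in 6 of 19 fits with 1 embryo left out, and not with no filter (0.169), no batch term (0.102) or DESeq2 size factors (0.067). Lsm14a, a protein of P bodies, fell in separated embryos (57.3 ± 11.8 CPM at the 4-cell stage against 201.3 ± 49.6 CPM at the 2-cell stage, edgeR adjusted p = 0.0118). It was also called lower in intact embryos, near the threshold (log2 fold change -1.2 ± 0.37, edgeR adjusted p = 0.0466).

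Of 14 tested exosome and 3′ decay genes, 4 rose and 1 fell in intact embryos, and 1 rose and 1 fell in separated embryos. Exosc2, an RNA-binding subunit of the exosome, measured 189.1 ± 88.8 CPM in intact 4-cell and 7.18 ± 8.30 CPM in intact 2-cell embryos (log2 fold change 4.72 ± 0.97, edgeR adjusted p = 0.00432). In separated embryos Exosc2 was not called (log2 fold change 2.56 ± 0.93, edgeR adjusted p = 0.0803). Wdr61, a subunit of the Ski complex, rose to 257.9 ± 80.2 CPM in intact 4-cell against 12.2 ± 9.49 CPM in intact 2-cell embryos (edgeR adjusted p = 0.000989). It measured 187.1 ± 76.0 CPM in separated 4-cell and 47.8 ± 36.9 CPM in separated 2-cell embryos (edgeR adjusted p = 0.0468), a call that held in 5 of 19 fits with 1 embryo left out and not without batch 2 (0.0547). Ttc37, also of the Ski complex, fell in separated embryos (11.7 ± 5.05 CPM at the 4-cell stage against 87.9 ± 59.9 CPM at the 2-cell stage, edgeR adjusted p = 0.0453), a call held in 9 of 19 such fits and not with no filter (0.0561) or without batch 2 (0.0595). In intact embryos Ttc37 was called lower too, near the threshold (log2 fold change -2.43 ± 0.77, edgeR adjusted p = 0.0492). Exosc6 passed as higher in intact embryos (edgeR adjusted p = 0.0171). It had counts in 2 of 4 intact 4-cell embryos and 1 count in the intact 2-cell embryos. That call was lost without intact 4-cell replicate 1 (0.0698) or with limma voom and quality weights (0.0602). The rise was not seen in separated embryos, where all 5 2-cell embryos had Exosc6 counts (3229 in sum). Its log2 fold change there was -0.98 ± 1.61 (edgeR adjusted p = 0.7625).

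**Figure D5:**
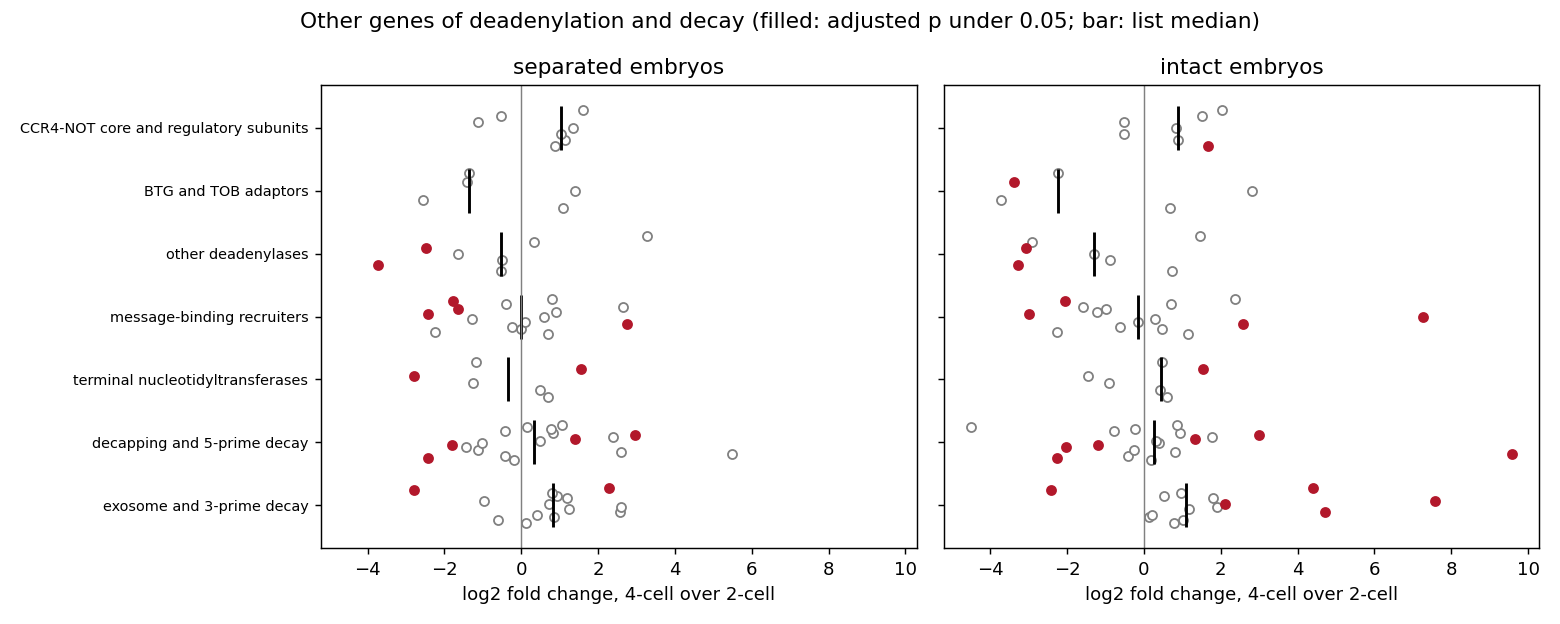
Log2 fold changes, 4-cell over 2-cell, of the 72 tested genes of 7 lists in separated (left) and intact (right) embryos; filled points passed an edgeR adjusted p of 0.05 and bars are list medians. Filled points lie on both sides of 0 in 4 of the 7 lists in separated and in 3 of the 7 in intact embryos. Both filled points of the list labelled other deadenylases, Pan3 and Angel2, lie below 0 in each panel.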

How the data were processed

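Per the labels' protocols, RNA of a whole embryo or 1 blastomere was reverse transcribed from oligo-dT primers with template switching, amplified by PCR and tagmented. Per the submitters' processing notes, Trim Galore 0.6.10, STAR 2.7.3a and RSEM 1.2.28 were used with GRCm38. The annotation and strandedness are not given in the sources used here. The deposited values are expected counts for each gene; 12.6% of those above 0 had decimals, and all were rounded here.

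Counts of sister blastomeres were summed, giving 19 embryos. The edgeR 4.0.16 quasi-likelihood F-test was fitted with TMM scaling, filterByExpr by group (14120 genes), the 4 groups and batch, with Benjamini-Hochberg adjustment over all tested genes at 0.05. Each SE was derived from the F statistic. The common biological coefficient of variation came to 1.43. Libraries held 2.02 to 44 M (mega) counts, and no pair was identical. Spread between sisters is the pooled SD of log2 CPM (prior count 2, TMM over the 30 blastomere libraries). Coding sequences were aligned with Biopython 1.88. The edgeR step was tried on simulated data for the intact stage comparison alone. Those data had less spread than the embryos, so the error rate here was not measured. PCR reads carry no molecular tags, so the counting error is a lower limit of the true error. Alternatives were DESeq2 1.42.0 and its size factors, limma 3.58.1 voom with quality weights, no filter, no batch term, batch 2 left out, the compared groups alone, a replicate block, each blastomere as a library with duplicateCorrelation, each embryo left out, a prior count of 0.5, totals in place of TMM and transcript in place of exon length (R 4.3.3).

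The members and lists were chosen with earlier results of these data known. Genes named beside the 9 are, per list and stage comparison, up to 3 with the smallest p among those called, and for each member the 2 genes with the highest Pearson r over embryos, of mean level of at least 10 CPM and with a symbol other than a predicted one. One gene that this rule names is not reported here. Reads, isoforms and alleles were not analysed here.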

Additional observations from a re-analysis of the deposited data

Results flagged for a closer look

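In a check of 36 groups of 4 or 5 embryos with Dixon's test at the 95% level, 2 values stood apart, where chance alone gives about 5% of such groups. Zfp36l2 measured 6.25 CPM in intact 2-cell replicate 2, while the other 4 embryos of its group lay between 0 and 0.139 CPM. Tut4 measured 36.2 CPM in intact 4-cell replicate 4, while the other 3 embryos of its group lay between 1.12 and 6.22 CPM.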

How the results depend on the processing

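Between stages Btg4 stayed lower in 4-cell embryos under every alternative run, and past the threshold except in the limma fits named below. Cnot6l and Cnot7 kept their direction in both stage comparisons throughout, but not always the call, and the cause was not tested. Scaling by DESeq2 size factors shifts the median stage change over all genes by -0.13 on the log2 scale in intact embryos. Stage log2 fold changes are 4-cell over 2-cell, and separation ones are separated over intact.

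With DESeq2 size factors the Tut4 stage log2 fold change in intact embryos was -0.036, the 2-cell separation ones were -0.053 for Btg4, -0.14 for Cnot7 and -0.059 for Ythdf2, and the Cnot6l interaction was 0.049. DESeq2 itself gave -0.035, -0.053, -0.14, -0.059 and 0.049 for these, and called 3046 genes (1271 higher) between stages in intact and 3220 (1251 higher) in separated embryos. The edgeR counts were 1470 (765 higher) and 1569 (905 higher). DESeq2 called 493 and 379 genes for separation at the 2-cell and 4-cell stage, 523 for the interaction and 1275 for batch, against 286 for batch by edgeR.

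With no filter Cnot7 had -1.33 in intact embryos (edgeR adjusted p = 0.0513), the 2-cell separation value of Cnot6l was 0.016, and 104, 11 and 38 genes were called for separation at the 2-cell and 4-cell stage and the interaction.

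With limma voom and quality weights, 2842 genes (1828 higher) were called between stages in intact embryos, with 1 member, Zfp36l2. Btg4 had -3.73 in intact and -4.82 in separated embryos, Cnot6l -2.05 and -2.26, Cnot7 -1.26 in intact, Tut4 -0.98 in intact and Cnot8 -0.25 in separated embryos. Separation values were 0.051 for Cnot6l at the 2-cell stage and 0.023 for Cnot7 and 0.34 for Zfp36l2 at the 4-cell stage. Genes called were 8 and 13 for separation at the 2-cell and 4-cell stage, 2 for the interaction and 2374 for batch.

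Without a batch term 2542 genes were called between stages in separated embryos, and Ythdf2 had 0.10. Without batch 2, 1224 genes (507 higher) were called between stages in intact embryos, 0 genes were called for separation at the 2-cell stage, the 4-cell separation values were 0.067 for Cnot7 and 0.023 for Zfp36l2, and the interaction was 0.18 for Cnot6l and 0.058 for Cnot7. With the compared groups alone, Tut4 had -0.0083 between stages in intact embryos, Cnot7 -0.022 for 2-cell separation, where 0 genes were called, and 1153 genes were called for batch. Between stages that fit called 1382 genes (525 higher) in intact and 1073 (482 higher) in separated embryos.

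Same-numbered embryos did not deviate together, with r of -0.0742 to 0.0459 over 14 pairs, and were not treated as pairs. This check cannot tell whether they shared a litter or a day. With a replicate block, 737 and 715 genes and 1 member each, Btg4, were called between stages in intact and separated embryos, and 0 genes for 2-cell separation. Under that block Cnot6l had -2.04 and -2.37, Cnot7 -1.14 and -1.39, Tut4 -0.27 in intact and Ythdf2 0.014 in separated embryos.

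With each blastomere as a library (limma, embryo as block), 715 genes and 0 members were called in intact embryos, where Btg4 had -4.0, Cnot6l -2.32, Cnot7 -1.57 and Tut4 -1.05. In separated embryos 3869 genes and 5 members (Cnot6l, Cnot6, Cnot7, Tut4 and Tut7, all lower) were called, with Btg4 at -5.0 and Cnot8 at -0.89. Separation values were -0.39 for Btg4 at the 2-cell stage and -1.02 for Cnot6 and -0.36 for Cnot8 at the 4-cell stage. That fit called 107 and 3 genes for separation at the 2-cell and 4-cell stage, and 5133 genes with 2 members for batch.

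Leaving out 1 embryo at a time gave log2 fold changes of -2.69 to -1.93 and -2.67 to -2.06 for Cnot6l, and -1.56 to -1.06 and -1.63 to -1.30 for Cnot7, in intact and separated embryos. Genes called ranged from 798 to 1659 and from 811 to 1652 between stages, from 64 to 337 for batch, from 0 to 2 for the interaction, and from 0 to 7 and 0 to 1 for separation at the 2-cell and 4-cell stage. Values that were not called and changed sign had these ranges. Between stages they were -0.49 to 0.19 for Cnot8, -1.64 to 0.53 for Tut4 and -0.092 to 0.52 for Tut7 in intact embryos, and -0.84 to 0.75 for Cnot8 and -0.30 to 0.086 for Ythdf2 in separated embryos. For separation at the 2-cell stage they were -0.055 to 0.40 for Btg4, -0.48 to 0.28 for Cnot6l, -0.091 to 0.34 for Cnot7 and -0.050 to 0.34 for Ythdf2. For separation at the 4-cell stage they were -0.42 to 0.16 for Cnot6l, -0.28 to 0.12 for Cnot7, -0.56 to 1.04 for Cnot8, -0.38 to 0.83 for Zfp36l2 and -1.28 to 1.33 for Tut4. For the interaction they were -0.43 to 0.35 for Cnot6l and -0.40 to 0.099 for Cnot7. Members called ranged from 1 to 3 between stages. The fewest genes, over all tested genes, were called without intact 4-cell replicate 1, 3 or 5 (898, 807 and 798 genes in intact embryos), without separated 4-cell replicate 2, 3 or 4 (990, 961 and 811 in separated embryos), and, for batch, without separated 4-cell replicate 2, 6 or 7 (186, 64 and 112). The members' median spread between sisters ranged from 0.445 to 0.594 in batch 2 and 2.54 to 2.88 in batch 1 of the 4-cell stage and from 0.584 to 0.695 at the 2-cell stage, and was 3.78 in batch 1 with a prior count of 0.5. A replicate block for batch and the compared groups alone for the interaction were not run. Intact 4-cell embryos had the lowest totals, 2.74 to 4.19 M counts, which bears on low genes there.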
